A study of Mus musculus with 30 samples.

Results

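The genes of the DNA replication machinery were followed in sorted haematopoietic stem cells of young and old mice, living unjoined or surgically joined in parabiosis. The set holds 43 genes, chosen by name for their part in loading, starting and running the replication fork or in supplying its nucleotides. The choice was made with earlier results of these data known, so the shares of them called below are no independent test. All 43 were found among the 17562 genes of the deposited count table, and all 43 were among the 15675 genes that passed the filter on low counts. The lowest count of any of them in a library used for the main tests was 55, for Gins1.

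The stem cells came from the bone marrow of male mice, and RNA was made into low-input RNA-seq libraries. Young mice were 8 to 12 weeks old at the procedure, and old mice were 22 months old in strain B6 or 21 months old in BoyJ, a congenic partner strain. Unjoined young and old mice form the conditions YCNT and OCNT. In YISO and OISO the partner was of like age (isochronic), and in YHET and OHET of the other age (heterochronic). OHETX holds cells of old heterochronic B6 mice taken from the marrow of the young partner. Every YHET library is BoyJ and every OHET and OHETX library is B6, so age and strain coincide between these conditions. The labels do not say which mice were partners. The series calls the samples biological replicates, and p-values here measure only the spread between these samples.

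For 11 of the 30 columns of counts, the title and the description of a sample name different libraries. Tests therefore rest on the 19 libraries on which both labels point to 1 sample, called libraries whose labels meet. Of the young there are 4 unjoined (YCNT), 3 isochronic (YISO) and 2 heterochronic (YHET) libraries, and of the old 4 unjoined (OCNT), 4 isochronic (OISO) and 2 heterochronic (OHET). Results with columns placed by the title, over 29 libraries, are given beside them, and OHETX has only libraries of that kind. Library totals ran from 12269259 to 30932977 counts in the 19 libraries and from 7659468 in the 29.

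Replication starts where the origin recognition complex marks the DNA and Cdc6 and Cdt1 load the Mcm2-7 ring on it. Cdc45 and the GINS complex turn that ring into an active helicase, polymerases alpha, delta and epsilon copy the strands, and PCNA, set on DNA by the RFC loader, holds the polymerases in place. Most adult stem cells of the marrow rest outside the cell cycle, and transcripts of these genes are commonly higher in cells that prepare for or pass through S phase. In bulk libraries such as these, fewer cells of a type and less RNA per cell cannot be told apart.

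Replication transcripts were lower in old than in young stem cells. With old minus young taken as the mean of the unjoined and the isochronic difference, 12 of the 43 genes fell and 0 rose at a Benjamini-Hochberg adjusted p under 0.05 (edgeR's quasi-likelihood test), against 1.4% of all tested genes that fell. The log2 fold change was negative for 42 of the 43, with a median of -0.51 beside -0.01 for all genes tested. Over 29 libraries 19 of the 43 fell, against 2.1% of all tested genes: Fen1, Gins1, Lig1, Mcm2, Mcm7, Pcna, Pole2 and Rfc1 were added and Orc1 was lost. Without the 3 unjoined old B6 libraries only Pold3 was called, against 0.14% of all tested genes, and the median was -0.28 (over 29 libraries again Pold3 alone, with a median of -0.30).

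The size of the difference can be read from the mean log2 CPM over the 43 genes, where CPM is the library-scaled count, with TMM factors, and a prior count of 2 in the log. The 4 YCNT libraries lay together, from 5.77 to 5.80. The 3 OCNT libraries of strain B6 had 5.245, 5.20 and 5.12, whereas the BoyJ one had 5.715. The YISO libraries had 6.22 and 6.36 in B6 and 5.85 in BoyJ, the highest values of the 19 falling in B6. The OISO libraries had 5.37, 5.81 and 5.51 in B6 and 5.72 in BoyJ. Old and young libraries thus overlapped on this mean, since 1 OISO library exceeded all 4 YCNT libraries. In shares of all counts, the 43 genes took 0.241% in the lowest library, OB6CNT replicate 3 (95% Wilson interval 0.239% to 0.243%), and 0.522% in the highest, YISOB6 replicate 2 (0.519% to 0.524%). These intervals cover counting error only.

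**Figure D1:**
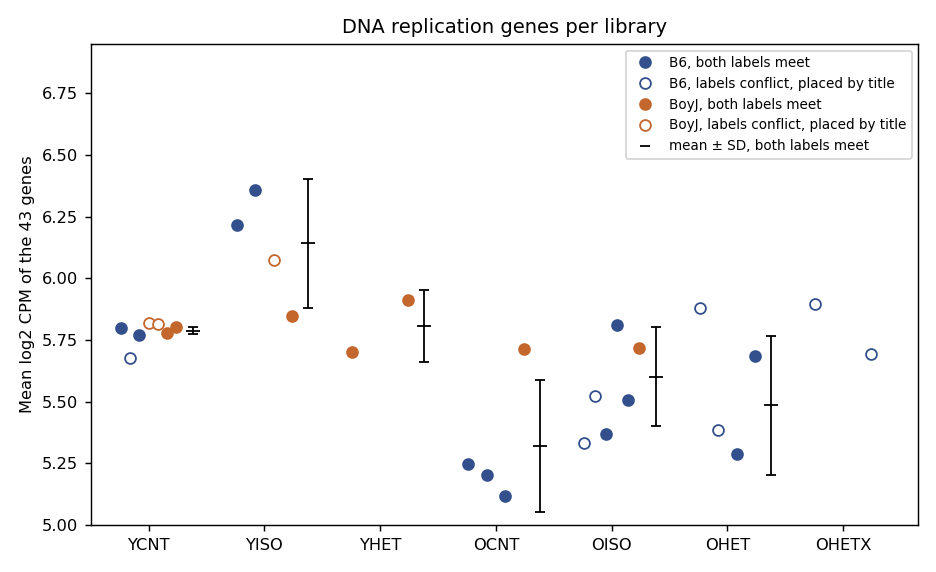
Mean log2 CPM of the 43 replication genes in each library (vertical axis) by condition (horizontal axis); filled points are libraries whose labels meet, open points libraries placed by the title alone, blue B6 and orange BoyJ, and black marks the mean ± SD of the filled points. The 3 B6 libraries of OCNT are the lowest of the filled points, from 5.12 to 5.245, and the 2 B6 libraries of YISO are the highest, at 6.22 and 6.36.

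Some libraries stood apart in other genes, and values of such genes are set beside the result here. In the 3 OB6CNT libraries the 17 immediate early genes, which respond within minutes to stress or stimulation, took 0.428% to 0.474% of counts, against 0.0592% in the BoyJ library of OCNT and 0.0366% to 0.157% in the other libraries of the 19. The 5 markers of multipotent and lymphoid-primed progenitors summed to 63.6 to 124 CPM in OCNT, 80.4 to 184 in OISO, 152 to 221 in YCNT and 184 to 274 in YISO. Among them Dntt was at 0 in the median of the 29 libraries and Il7r at 0.395 CPM. The 10 stem cell markers summed to 3369 to 3919 CPM in OCNT and 3140 to 3279 in YCNT, without overlap, and to 2930 to 3593 in OISO and 2706 to 3427 in YISO. The 5 megakaryocyte markers summed to 142.2 to 177.4 CPM in OISO and 86.5 to 141.6 in YISO, without overlap, and to 55.1 to 146.2 in OCNT and 53.7 to 94.8 in YCNT. The erythroid markers with values, thus without Hbb-bt, summed to 622 to 1026 CPM over the 19 libraries. Most of that sum was Car2, at a median of 713 CPM in the 29 libraries, with Car1 next at 21.4. The lymphoid markers with values, thus without Cd3e and Cd3g, summed to 2.39 to 5.08 CPM, with Cd79a and Pax5 at a median of 0. The 10 neutrophil and monocyte markers summed to 112 to 841 CPM in OISO and 43.4 to 82.2 in YISO, without overlap, and to 72.2 to 158.5 in OCNT and 44.4 to 234 in YCNT, with overlap. None of the separations of marker sums held over 29 libraries. YB6CNT replicate 2 had 3712 CPM of stem cell markers, and OISOB6 replicate 2 had 100.7 of megakaryocyte markers. YISOBJ replicate 1 had 177 CPM of neutrophil and monocyte markers. The part of the immediate early genes and of these markers in the difference was not tested.

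Promoters of replication genes are a classic place of E2F sites, through which the retinoblastoma family and E2F factors tie transcription to S phase entry. RefSeq promoter windows on GRCm38.p6, from 250 bases before to 50 after the start, were matched for 36 of the 43 genes. They were searched on both strands for TTTGGCGC, TTTCCCGC, TTTGGCGG and TTTCGCGC, letter sets that can overlap one another on opposite strands. At least 1 stood in 16 of the 36 windows (44.4%), in 450 of 11808 windows of other tested genes (3.81%), and in 2.42% of the 27025 genes of the whole promoter table. Among windows in the middle 50% of the members' GC content the counts were 12 of 19 (63.2%) and 261 of 5716 (4.57%). The shorter core GGCGC stood in 75% of the members' windows and in 58.3% of other tested genes. Of the matched genes, 6 of the 11 that fell held the letters (54.5%), and 10 of the 25 that did not pass (40%). Over 29 libraries these were 7 of 17 (41.2%) and 9 of 19 (47.4%). So few windows cannot show whether the letters set apart the genes that fell.

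Stretches of 50 bases from 4 of the genes that fell show these letters upstream of the start, with the capitals marking the matched run. They are Mcm5 at chr8:75109335-75109384 on the plus strand, Mcm6 at chr1:128359787-128359836 on the minus strand, Orc1 at chr4:108579406-108579455 on the plus strand, and Pola1 at chrX:93632265-93632314 on the minus strand, each written 5′ to 3′ on the strand of its gene.
Mcm5: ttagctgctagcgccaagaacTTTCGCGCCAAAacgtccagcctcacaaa
Mcm6: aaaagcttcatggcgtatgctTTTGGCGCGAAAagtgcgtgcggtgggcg
Orc1: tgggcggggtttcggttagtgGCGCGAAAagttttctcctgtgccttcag
Pola1: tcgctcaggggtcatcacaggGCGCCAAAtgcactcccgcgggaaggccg
In Mcm5 and Mcm6, overlapping matches on the 2 strands form a run of 12 letters, and the run of Mcm5 is the reverse complement of the run of Mcm6. The run was read from these 2 windows, so its presence in 2 of the 36 windows was set in advance and is no measure of enrichment. On either strand it stood in 2 of the 11808 windows of other tested genes (0.0169%). In Mcm6 the paired matches begin 110 and 106 bases before the start and a further match 47 bases before it. In Orc1 the match lies 27 bases before the start, and in Pola1 138. Cdc45, Mcm10, Prim1, Rrm1 and Tyms, all among the genes that fell, held none of the letter sets in their windows.

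**Figure D2:**
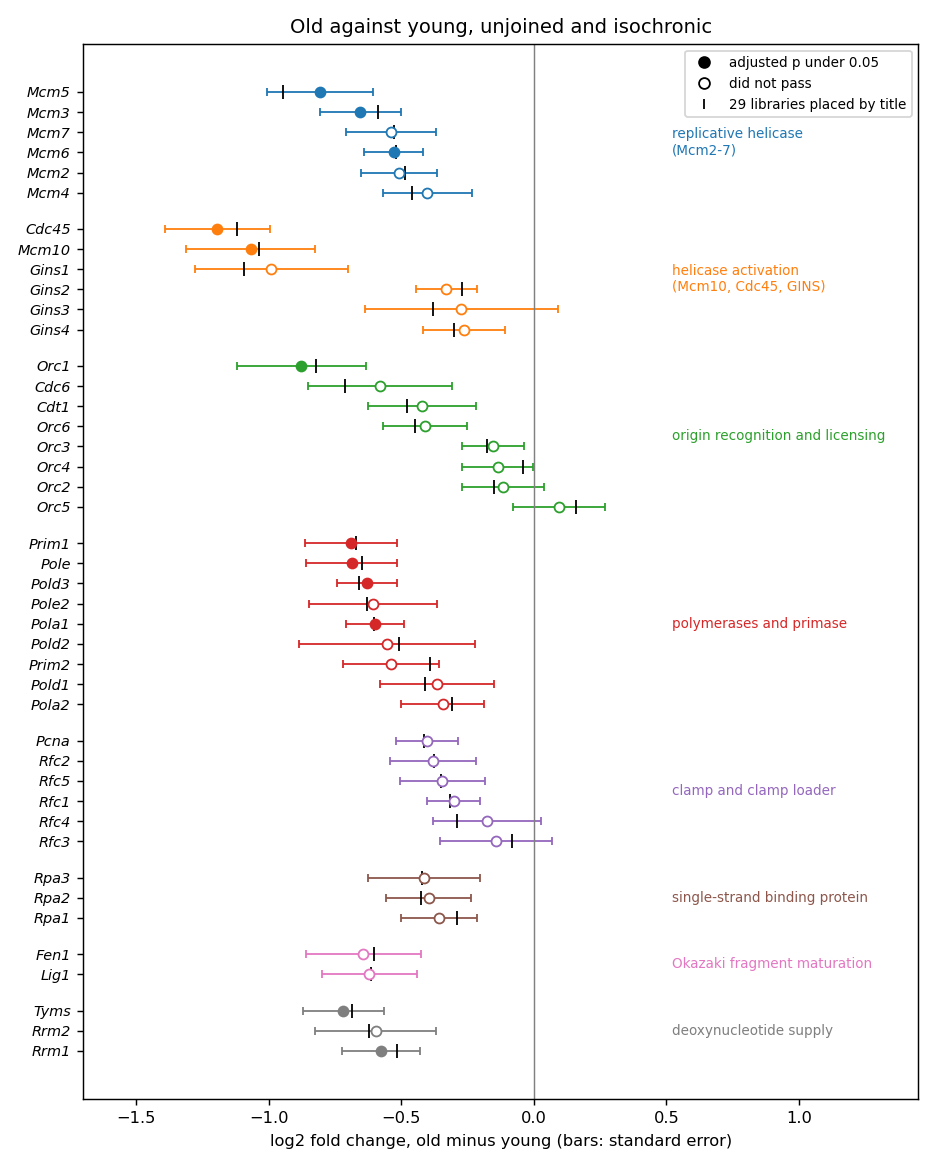
Log2 fold change, old minus young, with its standard error (horizontal axis) for each of the 43 genes grouped by role (vertical axis) in the 19 libraries; filled points have an adjusted p under 0.05, and ticks give the value over 29 libraries. Only Orc5 lies right of 0, at 0.10, and Cdc45 lies farthest left, at -1.19.

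Among the factors that activate the helicase, Cdc45 and Mcm10 fell and the 4 GINS subunits did not pass the test. Cdc45, the scaffold that joins Mcm2-7 and GINS in the moving helicase, lies at chr16:18780447-18811987 (minus strand, GRCm38). It had 34.5 and 26.4 CPM in the B6 and 31.5 and 39 in the BoyJ libraries of YCNT, and 51.0, 61.8 (B6) and 32.7 (BoyJ) in YISO. In OCNT it had 13.3, 14.0 and 9.18 (B6) and 24.35 (BoyJ), and in OISO 18.8, 24.8 and 17.6 (B6) and 18.2 (BoyJ). The highest of the 8 old libraries stayed below the lowest of the 7 young ones. Cdc45 was the 1 member of the 43 without overlap, and 0.198% of all tested genes separated in that way. Over 29 libraries the separation did not hold, since YB6CNT replicate 2, whose labels conflict, had 19.8 CPM. The log2 fold change was -1.19 (SE 0.20, adjusted p = 0.00116, edgeR), or 2.29-fold lower, and -1.12 over 29 libraries.

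Mcm10, which helps the loaded ring to open and start, ranged over 10.0, 17.55 and 33.3 CPM (lowest, median and highest) in the old and 24.3, 33.4 and 62.7 in the young libraries. Its log2 fold change was -1.07 (SE 0.24, adjusted p = 0.0148, edgeR), and the ranges overlapped. Gins1, a GINS subunit, had -0.99 but did not pass with 19 libraries (SE 0.29, adjusted p = 0.0619), while over 29 libraries it had -1.10 and an adjusted p of 0.0254 in edgeR. Gins2, Gins3 and Gins4 had -0.33, -0.27 and -0.26.

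All 6 subunits of the Mcm2-7 helicase ring had negative values, with a median of -0.53, and Mcm3, Mcm5 and Mcm6 fell. Mcm6 (chr1:128331590-128359664, minus strand) was the most abundant of the 6, at a mean of 72.5 CPM per kb of exon. It had 351, 338, 352 and 370 CPM in YCNT and 478, 575 and 360 in YISO, and 258, 227, 218 and 352 in OCNT and 291, 300, 269 and 340 in OISO, with BoyJ libraries last in each row of values (the last 2 in YCNT). Of the 8 old libraries 6 lay below all young ones, and the 2 others were the 2 BoyJ libraries. The log2 fold change was -0.53 (SE 0.11, adjusted p = 0.0091, edgeR).

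Mcm5, the ring subunit that forms the gate with Mcm2, had 29.3, 27.3, 23.8 and 48.8 CPM in OCNT and 33.3, 36.8, 45.5 and 46.4 in OISO. The young libraries ranged from 46.2 to 116 CPM with a median of 56.7. Its log2 fold change was -0.81 (SE 0.20, adjusted p = 0.0247, edgeR), and 6 of the 8 old libraries lay below every young one. Mcm3 had 64.9, 106 and 151 CPM (lowest, median, highest) in the old and 129.5, 163 and 249.9 in the young libraries, with -0.66 (SE 0.15, adjusted p = 0.0171, edgeR). Mcm2, Mcm4 and Mcm7 had -0.51, -0.40 and -0.54 and passed only without adjustment (Mcm2 and Mcm7 fell over 29 libraries). Their medians were 99.7 against 129 CPM for Mcm2, 148 against 189 for Mcm4 and 106.5 against 154 for Mcm7, old against young.

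Of the 8 genes that recognise and license origins, only Orc1 fell, and Orc2 to Orc5 had values near 0. Orc1, the largest subunit of the origin recognition complex and one of its ATPases, had 10.2, 5.175, 7.86 and 8.255 CPM in OCNT against 15.2, 11.8, 22.0 and 12.8 in YCNT, and 14.5, 12.8, 9.935 and 9.0 in OISO against 24.6, 19.6 and 13.9 in YISO. Its log2 fold change was -0.88 (SE 0.24, adjusted p = 0.0488, edgeR). That call sits close to the threshold and was not made over 29 libraries. Orc2, Orc3 and Orc4 had -0.12, -0.15 and -0.14, and Orc5 had 0.10, the only positive value of the 43. Orc4 illustrates the contrast, with a median of 63.4 CPM in the old and 61.8 in the young libraries. Orc6, Cdc6 and Cdt1, the last 2 being the loaders of the ring, had -0.41, -0.58 and -0.42 and did not pass. Cdt1 had 16.1, 25.2 and 39.1 CPM in the old and 17.5, 42.25 and 45.1 in the young libraries.

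The polymerases and the primase held 4 of the 12 genes that fell, Pola1, Pold3, Pole and Prim1, and all 9 values were negative with a median of -0.60. Pola1, the catalytic subunit that starts each strand together with the primase, lies at chrX:93304767-93632155 (minus strand). It had 292, 269, 285 and 229 CPM in YCNT and 337, 382 and 276 in YISO, against 188, 168, 150.3 and 191 in OCNT and 178, 263, 185 and 268 in OISO. The unjoined groups did not overlap for Pola1, and 2 OISO libraries reached into the young range. Other members, such as Cdc45, Mcm10 and Prim1, also had no overlap between the unjoined groups. The share over all genes is not given for that split. The log2 fold change was -0.60 (SE 0.11, adjusted p = 0.00225, edgeR), and it was -0.60 over 29 libraries too.

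Pold3, an accessory subunit of the lagging strand polymerase delta (chr7:100082111-100121565, minus strand), had 64.3, 64.1, 56.55 and 59.1 CPM in YCNT and 88.3, 94.9 and 76.35 in YISO. It had 52.4, 40.35, 49.7 and 36.9 in OCNT and 56.7, 43.5, 45.5 and 57.0 in OISO. Only 2 OISO libraries reached the lowest young value, and the log2 fold change was -0.63 (SE 0.11, adjusted p = 0.00214, edgeR). Prim1, the primase that lays the RNA start of each fragment, had -0.69 (SE 0.17, adjusted p = 0.028) with medians of 47.2 CPM in the old and 75.3 in the young libraries. Pole, the leading strand polymerase, had -0.69 (SE 0.17, adjusted p = 0.0256) with medians of 88.8 and 142 CPM. Prim2, Pole2, Pold2, Pold1 and Pola2 had between -0.61 and -0.34 and did not pass.

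Clamp, clamp loader and single-strand binding protein held no gene that passed. Pcna, the sliding clamp, was the most abundant member per exon length, at a mean of 152 CPM per kb, and Mcm10 the least, at 3.45. Pcna had 400, 381, 379 and 336 CPM in YCNT and 456, 595 and 396 in YISO, against 258, 292, 272 and 402 in OCNT and 298, 369, 276 and 405 in OISO. The 2 old BoyJ libraries, at 402 and 405 CPM, exceeded all 4 YCNT libraries. Its log2 fold change was -0.40 (SE 0.12, adjusted p = 0.0618, edgeR), and over 29 libraries -0.42 with an adjusted p of 0.014. The 5 subunits of the loader ranged from -0.38 for Rfc2 to -0.14 for Rfc3. Rpa1, Rpa2 and Rpa3, which coat single-stranded DNA, had -0.36, -0.40 and -0.42, and Rpa2 had medians of 30.1 CPM in the old and 39.8 in the young libraries. Pcna and Tyms have annotated pseudogene copies in the mouse genome, and how reads were shared with them is not given in the sources used here.

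Both enzymes that finish Okazaki fragments missed the threshold. Fen1, the flap endonuclease, had -0.64 with medians of 23.9 CPM in the old and 36.9 in the young libraries. Lig1, the ligase, had -0.62 (SE 0.18, adjusted p = 0.0576, edgeR) with medians of 94.7 and 151 CPM. In Lig1 the unjoined old BoyJ library, at 167 CPM, exceeded all 4 YCNT libraries.

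Of the 3 enzymes of deoxynucleotide supply, Tyms and Rrm1 fell. Tyms, thymidylate synthase (chr5:30058202-30073617, minus strand), had 82.2, 82.3, 91.4 and 74.4 CPM in YCNT and 110.1, 141 and 82.7 in YISO. It had 47.8, 41.5, 45.3 and 80.4 in OCNT and 66.3, 72.2, 58.7 and 54.8 in OISO. Of the 8 old libraries 7 lay below every young one, the exception being the unjoined BoyJ library. The log2 fold change was -0.72 (SE 0.15, adjusted p = 0.00944, edgeR) and -0.69 over 29 libraries. Rrm1, the large subunit of ribonucleotide reductase, had -0.58 (SE 0.15, adjusted p = 0.0288) with medians of 178 CPM in the old and 256 in the young libraries. Rrm2, the small subunit whose level limits the enzyme in S phase, had -0.60 and did not pass (adjusted p = 0.175), with medians of 43.6 and 56.9 CPM.

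**Figure D3:**
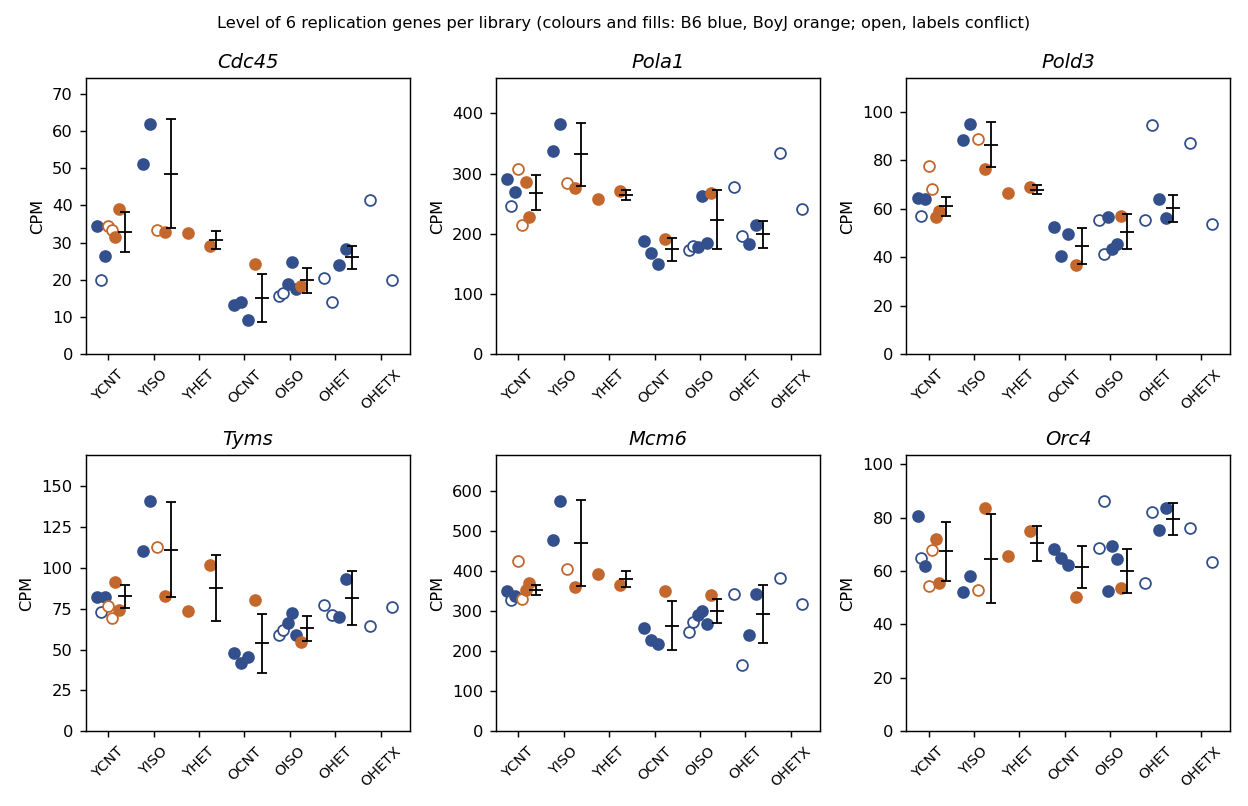
CPM per library (vertical axes, from 0) of Cdc45, Pola1, Pold3, Tyms, Mcm6 and Orc4 by condition (horizontal axes); filled points are libraries whose labels meet, open points libraries placed by the title alone, and bars are mean ± SD of the filled points. Cdc45 is below 25 CPM in every filled OCNT and OISO point and above 26 in every filled YCNT and YISO point. An open YCNT point, YB6CNT replicate 2, has 19.8 CPM of Cdc45. Orc4 has medians of 63.4 (old) and 61.8 (young) over the filled OCNT, OISO, YCNT and YISO points.

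Cdc45, Mcm6, Pola1, Pold3 and Tyms were called in each of the 19 fits that left out 1 of the 19 libraries. The number of members called in those fits ran from 6, without YISOB6 replicate 2, to 19, without YISOBJ replicate 2. It was 7 without OB6CNT replicate 2, OB6CNT replicate 3 or OISOB6 replicate 3, 8 without YISOB6 replicate 1 or OISOB6 replicate 5, and 18 without OBJCNT replicate 1. Leaving out 1 library keeps other OB6CNT libraries in, so these fits cannot show the dependence on that group as a whole, given above. DESeq2 called 19 members and limma-voom 24, all lower in old cells, against 2.69% and 2.72% of all genes that fell in these tools.

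Taken apart, the unjoined and the isochronic animals each gave the same direction with few calls. Between unjoined mice, OCNT minus YCNT, 1 member fell, against 0.268% of all genes. That gene was Pola1, with -0.63 (SE 0.15, adjusted p = 0.0391, edgeR) and mean levels of 174 ± 19.0 CPM (SD, n = 4) in OCNT and 268.5 ± 28.3 (SD, n = 4) in YCNT. Cdc45 had -1.10 and an adjusted p of 0.0513, and Mcm10 -1.36 and 0.052. The median over the 43 was -0.42, with 40 negative. Over 29 libraries Cdc45 and Pola1 fell, against 0.517% of all genes, and with the 19 libraries limma-voom called 15 members, against 2.08%. Without the 3 OB6CNT libraries no member passed and the median was -0.04 (-0.07 over 29 libraries), and the single OCNT library left is BoyJ. No member passed either without any 1 of the 3 OB6CNT libraries, YB6CNT replicate 1 or 3, YBJCNT replicate 3 or YHETBJ replicate 3, while 5 passed without OBJCNT replicate 1, 3 without OHETB6 replicate 3 or 4 or YISOBJ replicate 2, and 2 without YISOB6 replicate 1 or 2.

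Between isochronic mice, OISO minus YISO, 2 members fell, against 0.0574% of all genes. Cdc45 had -1.29 (SE 0.29, adjusted p = 0.0385, edgeR), from 48.5 ± 14.7 CPM (SD, n = 3) in YISO to 19.9 ± 3.33 (SD, n = 4) in OISO. Pold3 had -0.77 (SE 0.16, adjusted p = 0.0253), from 86.5 ± 9.4 CPM in YISO to 50.7 ± 7.18 in OISO (SD, n = 3 and 4). The median over the 43 was -0.52, and 42 were negative. Over 29 libraries Cdc45, Mcm6, Pcna, Pola1, Pold3 and Tyms fell, against 0.336% of all genes. This comparison contains no OB6CNT library. When those were left out of the shared fit the median was -0.55, with Cdc45 alone called, and over 29 libraries it was -0.61, with 8 called, against 0.298% of all genes. A fit of only the conditions compared called no member, nor did fits without YISOB6 replicate 1 or 2 or OISOB6 replicate 3 or 5. Without OB6CNT replicate 1 or 2, OISOBJ replicate 1 or YB6CNT replicate 1 only Pold3 was called, and without OISOB6 replicate 4 only Cdc45. Without YISOBJ replicate 2 there were 8, and without OBJCNT replicate 1 there were 4.

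The authors' deposited table for this pair, YISO over OISO, held 11 members with an adjusted p under 0.05, all higher in YISO, against 0.808% of its genes. They were Cdc45, Mcm3, Mcm6, Orc6, Pcna, Pola1, Pold1, Pole, Prim1, Rrm2 and Tyms. In the authors' deposited table the log2 fold change of Cdc45 was 1.28 with an adjusted p of 8.29e-06. Cdc45, Mcm6, Pcna, Pola1 and Tyms are in both this list and the 6 called over 29 libraries.

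The age difference was not shown to depend on joining. The test of the difference between the isochronic and the unjoined age effect called 0 members, against 0.0% of all genes, with 1 of the 43 (Orc3) under an unadjusted p of 0.05 and a median of -0.11 (edgeR). DESeq2 and limma-voom called 0 as well, each with 1 under an unadjusted p of 0.05. Counts under an unadjusted p, here and below, stand without the share over all genes and are not read as results about the members.

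The strains differed in how many members passed. In B6 libraries, unjoined and isochronic, 19 members fell, against 1.81% of 14977 genes (over 29 libraries 27 fell, against 3.13%), with a median of -0.68. These were all 6 Mcm2-7 subunits, both Okazaki fragment enzymes, all 3 enzymes of deoxynucleotide supply, the same 4 polymerase and primase genes as above, Cdc45 and Mcm10, Cdt1 of the licensing factors, and Pcna. Cdc45 had -1.41, Lig1 -0.99 (adjusted p = 0.0032), Pole -0.98, Mcm6 -0.73 and Pcna -0.64 (edgeR). In BoyJ libraries 0 members passed, against 0.0868% that fell among all genes. Of these 43, Cdc45, Orc1 and Pold3 had an unadjusted p under 0.05, with -0.76, -0.97 and -0.53, and the median was -0.11. Pcna had 0.07 (SE 0.15), Lig1 0.12 (SE 0.25), Pole -0.10 (SE 0.21) and Mcm6 -0.13 (SE 0.16) in BoyJ.

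The test of the difference between the strains called 0 members, against 0.0% of all genes (edgeR). Of 43 values 40 were on the side of a smaller fall in BoyJ, and 11 had an unadjusted p under 0.05 (edgeR). These counts stand without the share over all genes. Most members also moved together across libraries, so the counts are not read as a difference between strains. The smallest p was that of Pcna, with a difference of 0.71 (SE 0.18, adjusted p = 0.46, edgeR). The old B6 side holds 6 libraries, 3 of them the OB6CNT libraries with high immediate early genes, and the old BoyJ side holds 2. In B6, 8 of the 17 immediate early genes rose (median 2.17), against 2.03% of all genes, and in BoyJ 0 did (median 0.39), against 0.614%. The part of that in the strain values was not tested.

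**Figure D4:**
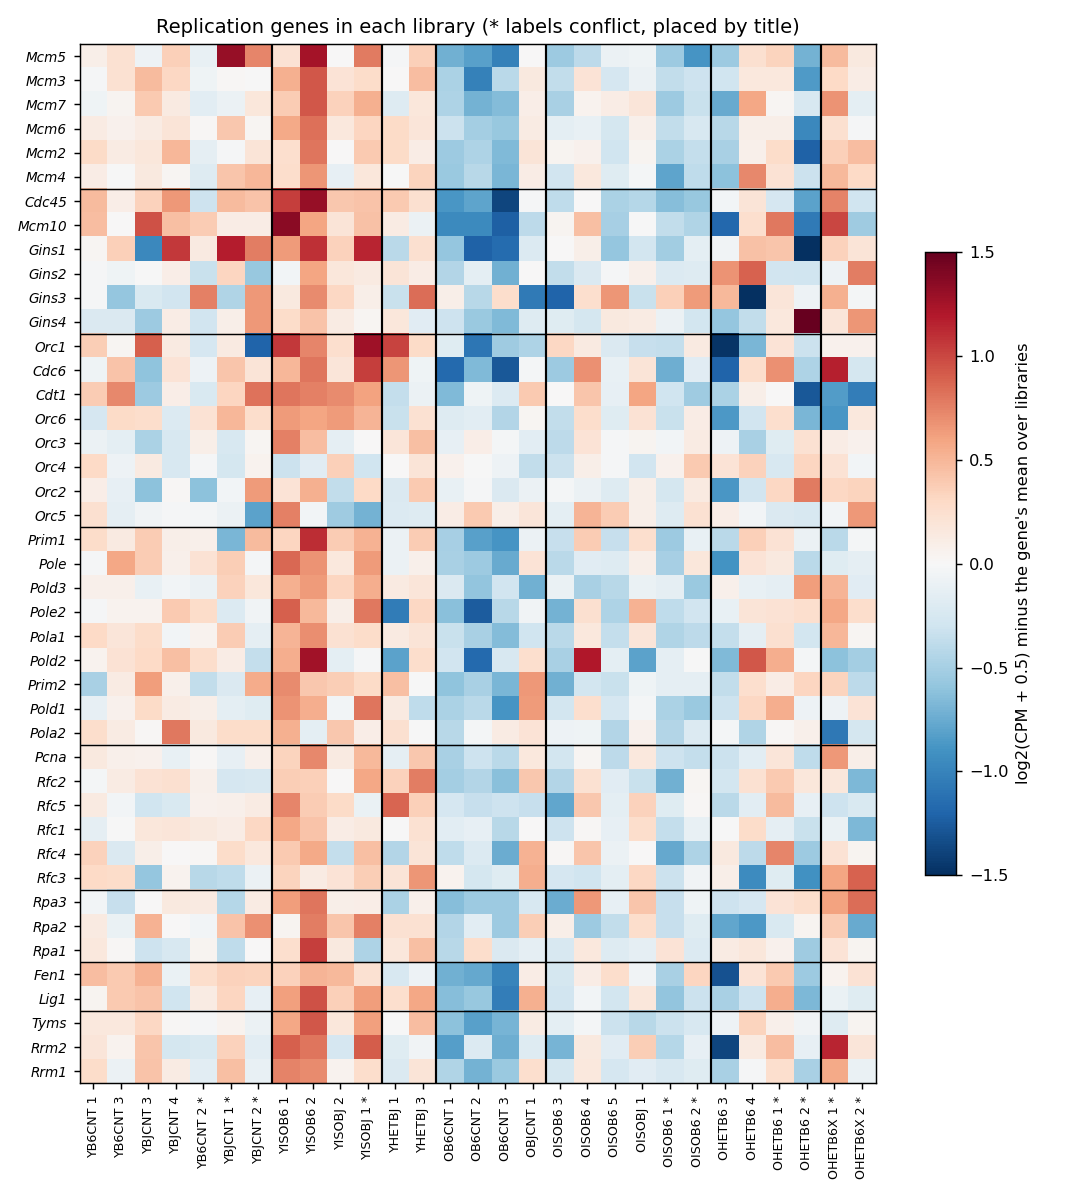
Log2(CPM + 0.5) minus the gene's mean over the libraries shown (colour) for the 43 genes (rows, by role) in 29 libraries (columns, by condition); a star marks a library whose labels conflict. Most rows are below their mean in the 3 B6 libraries of OCNT and above it in the 2 starless B6 libraries of YISO, and Orc4 follows neither.

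Most members had higher values in isochronic than in unjoined libraries, without calls. The share of positive values over all genes is not given. The BoyJ YISO library whose labels meet had a mean log2 CPM over the 43 of 5.85, beside 5.78 and 5.80 in BoyJ YCNT. In YISO minus YCNT 41 of the 43 were positive, with a median of 0.41, and 0 passed, against 0.0% of all genes. Of these, 9 had an unadjusted p under 0.05 in edgeR, 13 in DESeq2 and 6 in limma-voom, and none of the tools called a member. In OISO minus OCNT 39 were positive, with a median of 0.24, and 0 passed, against 0.0% of all genes. In this comparison 5 had an unadjusted p under 0.05 in edgeR, 7 in DESeq2 and 19 in limma-voom, again with 0 called by each. The share of all genes under that unadjusted threshold is not given for any of the tools. Without the 3 OB6CNT libraries that median turned to -0.15 (-0.18 over 29 libraries).

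Joining to a partner of the other age gave no call in edgeR either. In old cells, OHET minus OISO had a median of -0.09 (0.08 over 29 libraries) and 0 members passed, against 0.0% of all genes, with 4 under an unadjusted p of 0.05. Gins2 had the smallest p, with 0.95 (SE 0.19, adjusted p = 0.128), and was the 1 member DESeq2 called. Limma-voom called 0 and had 1 under an unadjusted p of 0.05. In young cells, YHET minus YISO had a median of -0.39, with 35 negative, and 0 members passed, against 0.0% of all genes. Unadjusted, 5 passed in edgeR, 9 in DESeq2 and 5 in limma-voom, and DESeq2 and limma-voom called 0. A fit of only these 2 conditions gave a median of -0.01. The strain mix differs here, since YHET is BoyJ and 2 of the 3 YISO libraries are B6.

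Old and young heterochronic partners were compared with the strain term taken from the other conditions. The 2 YHET libraries had a mean log2 CPM over the 43 of 5.70 and 5.91, and the 2 OHET libraries 5.29 and 5.685, without overlap. With columns placed by the title they overlapped, since OHETB6 replicate 1 had 5.88. In OHET minus YHET 29 of 43 were negative, with a median of -0.13, and 0 passed, against 0.153% of all genes. Unadjusted, 5 passed in edgeR, 6 in DESeq2 and 4 in limma-voom. Orc1 had -1.92 (SE 0.54, adjusted p = 0.188, edgeR), from 23.9 and 14.2 CPM in YHET to 3.875 and 7.03 in OHET, and was the 1 member DESeq2 called. Cdc45 had 32.5 and 29.1 CPM in YHET and 23.9 and 28.3 in OHET.

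Old cells from the marrow of the young partner gave 2 libraries, both placed by the title, and no member passed against OHET or OISO. Their mean log2 CPM over the 43 was 5.80 ± 0.14 (SD, n = 2), beside 5.56 ± 0.27 (SD, n = 4) in OHET and 5.54 ± 0.19 (SD, n = 6) in OISO placed in the same way, and the lower of the 2, at 5.69, lay below OHETB6 replicate 1, at 5.88. OHETX minus OHET had a median of 0.28 with 31 positive, and 0 members passed, against 0.218% of all genes. OHETX minus OISO had a median of 0.32 with 36 positive, and 0 passed, against 0.187%. Cdc45 had 41.6 and 19.9 CPM and Pola1 334 and 241 in the 2 libraries, which thus differed from each other by more than the medians given. The first of them, OHETB6X replicate 1, also held 2614 CPM of neutrophil and monocyte markers, 23.1 CPM of lymphoid markers and 0.405% of counts in immediate early genes, and it had the lowest depth of all. In the authors' deposited table OHET over OHETX, 1 member, Rfc3, had an adjusted p under 0.05 (log2 fold change -1.07, adjusted p = 0.00777), against 3.05% of its genes. The 9 other deposited tables held 0 members under 0.05.

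Across libraries most members moved together. Over the 19 libraries 36 of the 43 had a correlation above 0.5 with the mean of the other members, with a median of 0.77, while 6.66% of other genes had one above 0.5 with the mean of the 43. Mcm6 had the highest, 0.95, and Orc4 the lowest, -0.12. After each condition's mean was subtracted 30 of the 43 stayed above 0.5, with a median of 0.65, beside 6.85% of other genes. Pold3 went from 0.63 to -0.31, so it differed between old and young without following the other members among libraries of 1 condition. All genes of a library share its depth and its mix of cells, both of which vary among the 19, and these correlations are a description.

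Other lists chosen for their place around replication are set beside the members, in old minus young over the 19 libraries. They too were chosen with earlier results of these data known. Values without the OB6CNT libraries, or over 29 libraries, are not given for any of these lists. Of 41 further replication factors 11 fell and 0 rose, against 1.4% and 2.66% of all tested genes, with a median of -0.53 and 36 negative. Among them Cdc7, the kinase that fires loaded origins, had -1.0 (SE 0.20, adjusted p = 0.00509), Atad5, which unloads PCNA, -0.68 (SE 0.13, adjusted p = 0.00477), and Wdhd1, which ties polymerase alpha to the helicase, -0.61 (SE 0.11, adjusted p = 0.00275) in edgeR. Of 28 regulators of S phase entry 2 rose and 2 fell, against 2.66% of all tested genes that rose and 1.4% that fell, with a median of -0.17. The inhibitor Cdkn1a rose by 2.23 (adjusted p = 0.0441) and the pocket protein Rbl2 by 0.45 (adjusted p = 0.0126), while Rbl1 had -0.55 (adjusted p = 0.0366) and the cyclin Ccne2 -0.95 (adjusted p = 0.0387) in edgeR.

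Mitotic genes went the same way as the replication genes, with a larger median. Of the 21 mitosis markers 14 fell, against the 1.4% of all tested genes, with a median of -0.85 and all 21 negative. Ect2, needed for cytokinesis, had -1.43 (adjusted p = 2.32e-04), Aurkb, a kinase of chromosome segregation, -1.10, and Tpx2, a spindle factor, -0.89. The mitosis markers took 0.158% to 0.294% of counts in OCNT, 0.33% to 0.462% in OISO, 0.394% to 0.483% in YCNT and 0.44% to 0.923% in YISO. The OB6CNT libraries, with 0.215%, 0.236% and 0.158%, were the lowest of the libraries whose labels meet. The part of those libraries in the fall of the mitosis markers was not tested. Of the 17 immediate early genes 4 rose, against 2.66% of all tested genes, with a median of 1.74, led by Ier3 (0.84, adjusted p = 0.00331), Junb (1.74, adjusted p = 0.00463) and Klf6 (1.10, adjusted p = 0.00835). Without a measure of DNA content the share of cells in S phase was not measured.

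**Figure D5:**
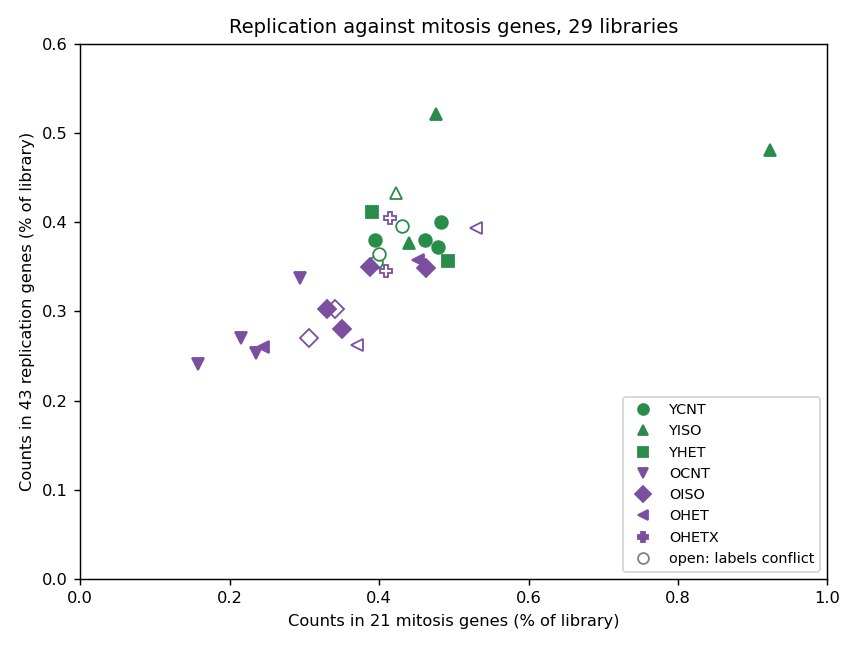
Share of all counts in the 43 replication genes (vertical axis, percent) against the share in 21 mitosis genes (horizontal axis, percent) in 29 libraries; green are young and purple old, and open symbols have conflicting labels. The lowest replication share is 0.241% and the highest 0.522%, and YISOB6 replicate 1 lies farthest right, at 0.923%.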

How the data were processed

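Per the labels' protocols, stem cells were sorted by flow cytometry and low-input libraries were built from their RNA. FastQC, MultiQC, Salmon, DESeq2 and the build GRCm38 are named, with no versions, in the submitters' processing notes. The authors deposited 1 table of estimated counts, whole in the file, for 17562 genes in 30 columns, and 11 comparison tables. Per the file headers these hold a mean normalized signal, log2 fold changes with standard errors, a test score and p-values, and whether the log2 values were shrunken is not stated.

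Each column name stands in a sample's description, and for 11 columns that sample's title holds a different code. Of these 11 codes, 10 are found in some other sample's title, and 15_S31 is in none. The main fit left these 11 out. As a check of matching, a DESeq2 refit by title gave statistics whose Pearson r with the authors' deposited statistics was 0.85 to 0.905 over 11 comparisons (across genes, which are not independent replicates), and by description -0.024 to 0.75.

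The rounded counts went into edgeR 4.0.16 under R 4.3.3: genes were filtered with filterByExpr on the condition, libraries were scaled by TMM, and a robust quasi-likelihood model held 6 conditions and the strain, which left 12 residual degrees of freedom. P-values were adjusted over all 15675 genes tested. Standard errors were obtained by dividing each log2 fold change by the root of its F. The comparisons by strain used the unjoined and isochronic libraries. Alternatives were DESeq2 1.42.0, limma-voom (limma 3.58.1), RLE factors, no filter, no strain term, fewer conditions, B6 only, other matchings and leaving out libraries. The scripts were tested on simulated counts. The members and lists were chosen with earlier results of these data known. Values by library were given for members called in any comparison, those with the smallest p of their role in old minus young, and the most and least abundant per kb, and of each other list for up to 3 genes with the smallest p. Positions are those of GENCODE vM21 on GRCm38, and symbols are the authors'.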

Additional observations from a re-analysis of the deposited data

Results flagged for a closer look

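In the 19 libraries, 66 sets of values were looked at, namely 21 members and the mean over the 43 in each of YCNT, OCNT and OISO, and 3 values lay far from the others of their group, and chance flags about 1 in 20 groups. Tyms had 80.4 CPM in OBJCNT replicate 1, while the other OCNT libraries, all B6, had 41.5 to 47.8. Cdc45 had 24.8 CPM in OISOB6 replicate 4, while the others of OISO had 17.6 to 18.8. Mcm2 had 88.2 CPM in OISOB6 replicate 5, while the others of OISO among the 19 had 111 to 113, and 2 further OISO libraries placed by the title had 77.75 and 84.65.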

How the results depend on the processing

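Of 595 log2 fold changes of named members under other settings, 595 kept their sign and 473 their side of the threshold. Most of these members were named because they were called in the same libraries, so keeping the sign was largely set in advance. Of 288 medians under other settings 270 stayed within 1 SD, the pooled SD of the members' mean log2 CPM being 0.217. The median of OISO minus OCNT changed sign without the OB6CNT libraries, as given above. For old minus young (12 members called), DESeq2 called 19, limma-voom 24, placing by title 19, and title with DESeq2 23. Without the OB6CNT libraries 1 was called, by title also 1, and leaving out 1 library gave 6 to 19. For OCNT minus YCNT (1 called), DESeq2 called 3, RLE factors 2, title 2, title with DESeq2 7, title without YISOB6 replicate 1 2, limma-voom 15, no strain term 3 and only the conditions compared 4. Without the OB6CNT libraries 0 were called, by title also 0, and leaving out 1 library gave 0 to 5. For OISO minus YISO (2 called), B6 alone gave 6, DESeq2 5, title 6, title with DESeq2 10, title without OB6CNT 8, only the conditions compared 0, without OB6CNT 1, and leaving out 1 library 0 to 8. For OHET minus YHET and for OHET minus OISO (0 called each), DESeq2 called 1 each, and without OHETB6 replicate 3 OHET minus OISO had 1 (Gins2). The cause of these shifts was not tested, except that leaving out libraries leaves fewer samples. Settings with title and DESeq2 together, title without libraries, and the strain comparisons were chosen after seeing the data. No paired analysis was possible because the labels do not say which mice were partners and their replicate numbers, in accession order, pair no samples. The lowest count of a member in the 19 libraries was 55 (Gins1), so depth limits the least abundant members most.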
